A study of Mus musculus with 18 samples.

Results

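The serpins, a family of protease inhibitor genes, were taken from the expression table as every gene whose symbol is Serpin, a clade letter from a to i, a number and an optional letter. The rule found 57 of the 27743 genes in the table, of which 22 belong to clade A, 25 to clade B, 3 to clade E and 7 to the other clades (C, D, F, G, H and I). RNA was sequenced from mouse skin flaps. In 5 groups a mesh-like spacer, made by near-field electrostatic printing, was laid under the flap, and the skin was collected at day 7; Control flaps received nothing after the flap model was made. The spacers differed in diameter and spacing and are called by their labels (D15L100, D15L150 and D15L200, then D100L150 and D150L150), since no unit or meaning of D and L is stated. Strain, age and sex of the mice are not in the sources used here, every group carries the flap surgery, and the labels name no group with an implant other than a mesh. Each of the 6 groups had 3 libraries, numbered 1 to 3, with 28422348 to 35327370 fragments recovered per library. The labels do not say that libraries of a group came from separate mice, so p-values measure only the spread between these libraries. The stated question is how surface topology regulates cell differentiation in place.

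A serpin presents a reactive loop to its target protease as bait. When the protease cuts the loop, the serpin changes shape and traps the enzyme, so that each inhibitor molecule is used once. Clade A holds secreted relatives of antitrypsin and antichymotrypsin and some hormone carriers, clade B mostly acts inside cells, and clade E holds secreted inhibitors such as protease nexin 1. A few members inhibit no protease, such as Serpinh1, the collagen chaperone HSP47. In skin, clade B members are known as inhibitors within keratinocytes.

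Levels are given in FPKM, fragment counts divided by gene length and by the library's total, so genes of different length can be compared. A gene was tested if 3 or more libraries reached an FPKM of 1. By this rule 32 serpins were tested: 10 of 22 in clade A, 17 of 25 in clade B, 2 of 3 in clade E and 3 of 7 in the other clades. Summed over the family, serpins made up 0.302% to 0.508% of all FPKM in a library. The 5 members with the highest means held 69.2% of the family's summed means. These were Serpinh1 at a mean of 532 FPKM, the C1 inhibitor gene Serping1 at 226, Serpinb6a at 187, Serpinf1 (pigment epithelium-derived factor) at 186 and Serpinb2 (plasminogen activator inhibitor 2) at 159. Serpina3n, an antichymotrypsin-like secreted inhibitor, was the highest of clade A at 126 FPKM. In 17 of the 18 libraries the 7 genes of the other clades held the largest share of serpin FPKM. The exception was D100L150 1, where clade B held 57.5%. Besides D100L150 1, Control 1 and D15L100 3 stood apart for several members, as their values below show. Basal keratinocyte markers, which define skin epithelium, were present in every library, at 1285 to 7474 FPKM in sum, and so were skeletal muscle markers, at 2221 to 20396 FPKM.

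**Figure D1:**
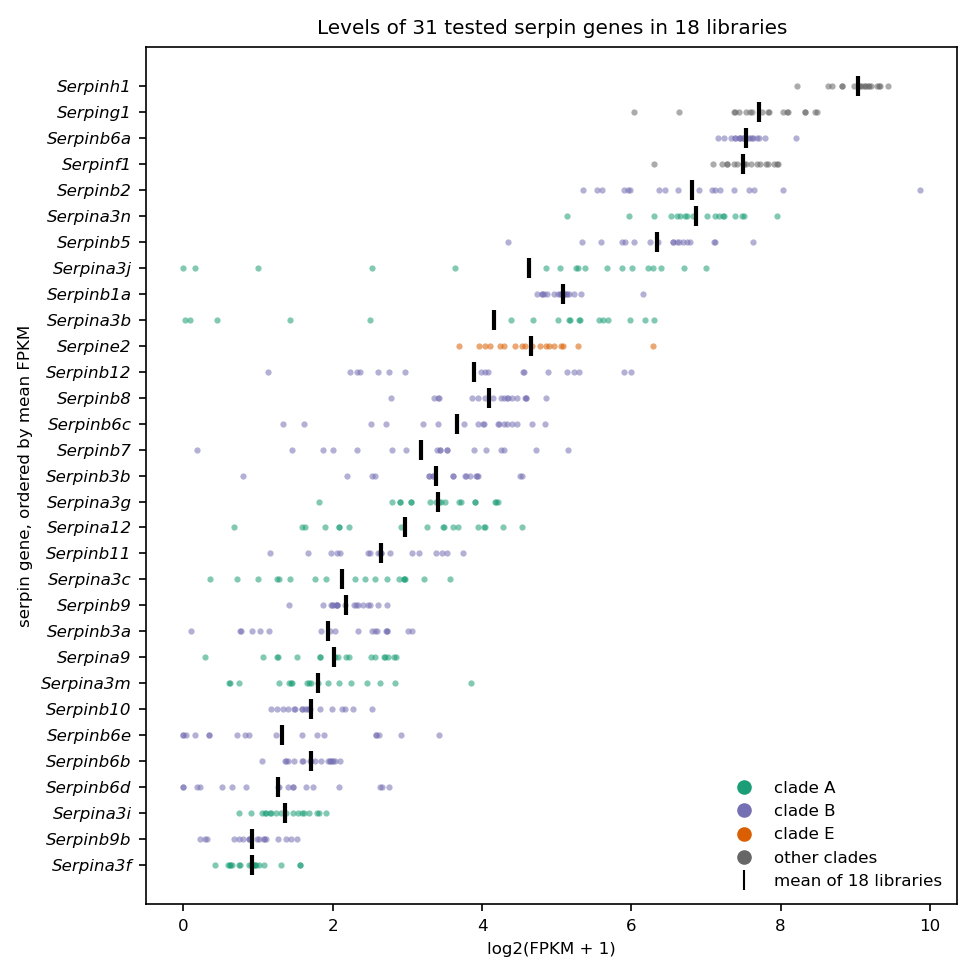
Levels of 31 tested serpins on a log2(FPKM + 1) axis, 1 row per gene in order of mean FPKM. Each point is 1 of 18 libraries, colour marks the clade and the bar is the mean of the 18 log values. Serpinh1 is highest in every library but D100L150 1, and Serpina3b and Serpina3j spread widely, from near 0 to 78.2 and 127 FPKM.

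The other 25 serpins were at or near 0. The highest value of any of them in any library was 1.20 FPKM, for the neuroserpin gene Serpini1 in D100L150 1, and 17 of them stayed below 0.2 FPKM in every library. They include the antithrombin gene Serpinc1 at up to 0.0971 FPKM, the heparin cofactor II gene Serpind1 at up to 0.285, the alpha-2-antiplasmin gene Serpinf2 at up to 0.168, and the antitrypsin genes Serpina1a to Serpina1e at up to 0.128. Serpine3 of clade E had at most 1 fragment in a library. The liver plasma protein genes of a marker list (Alb, Apoa1, Ttr, Fga, Fgg and Ahsg) summed to at most 1.40 FPKM in any library, and none passed the filter. Near-identical antitrypsin copies share sequence, 58.5% of the 100-base windows of Serpina1c occurring in another serpin, so their separate values are uncertain. No tested serpin shared 20% of its windows. The highest was Serpinb2 at 7.52%, and of the 8 serpins called in the comparison of all spacers with Control only Serpinb3b shared any, 0.515%.

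Against Control, flaps over spacers had higher levels of 7 serpins, 6 of clade B (Serpinb3a, Serpinb3b, Serpinb5, Serpinb6c, Serpinb7 and Serpinb8) and 1 of clade A (Serpina9), and a lower level of Serpine2 of clade E. Here the 5 spacer groups were averaged with equal weight and compared with Control by limma on log2(FPKM + 1) over 13078 genes, with Benjamini-Hochberg adjusted p under 0.05 as the threshold for a call. Of all genes 3.56% were called, 2.84% higher and 0.726% lower, against 8 of 32 serpins. The median log2 difference of the 32 serpins was 0.39, beside -0.04 for all genes tested, and 24 of 32 were positive. By clade, 6 of 17 were higher in clade B (median 0.88), 1 of 10 in clade A (median 0.37) and none of 3 in the other clades (median 0.00), while 1 of 2 in clade E was lower. Among those called higher, Serpinb3a stayed below an FPKM of 1 in every Control library, so only spacer libraries brought it into the test. All 8 calls rest on 1 Control library: without Control 1 no serpin passed in any comparison by limma, and in the comparison of all spacers no gene passed at all (1430 had an unadjusted p under 0.05), although all 8 serpins kept their sign and an unadjusted p under 0.05. In bulk tissue, a change in the number of cells of a type and a change in RNA per cell cannot be told apart. Markers of suprabasal keratinocytes summed to 260.4 to 1403 FPKM in Control and 1354 to 7642 over spacers, with 7 of 12 called higher (median 2.29). Markers of wound keratinocytes summed to 890.0 to 1853 and 1679.7 to 9976 FPKM, with 7 of 7 called higher (median 1.98). No member of either list was at 0 in a library, and the part these cells play in the serpin differences was not tested. All 15 skeletal muscle markers had negative differences (median -0.88, none called), and with the muscle level as a covariate 4 serpins were called. Of the markers of basal keratinocytes 1 of 8 was called higher, and none was called among those of neutrophils, macrophages, fibroblasts, endothelium, mast cells, T and NK cells or adipocytes. All 8 endothelial markers had negative differences (median -0.78), 7 of them with an unadjusted limma p under 0.05, where 22.4% of all genes passed. Their sums overlapped, at 544, 160 and 264 FPKM in Control 1, 2 and 3 and 91.3 to 274 over spacers.

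The 250 bases before the start of 7 of the 8 called genes are printed here, 6 of genes that were higher and, for Serpine2, 1 of a gene that was lower, so that motifs and near-identical copies can be compared. They are from RefSeq on GRCm38.p6, 5′ to 3′ on the gene's strand, and the RefSeq promoter table holds 48 of the 57 serpins. Serpina9 is named only. Each window belongs to 1 annotated start, and those of Serpinb6c and Serpinb8 lie partly or wholly inside the gene's outermost span. Capitals mark matches, on either strand, to 3 motifs. The first is TGANTCA, a wider form of the letters bound by AP-1 factors, TGAGTCA or TGACTCA. Matches and shares below count every middle base, and the match in Serpinb5 is TGAATCA, outside the narrower form. The second is TATAAA, a core promoter element, and the third is GGGCGG, letters bound by Sp1 factors. Where copies of GGGCGG overlap or adjoin, the capitals run together.
Serpinb5, chr1:106860925-106861174, plus strand: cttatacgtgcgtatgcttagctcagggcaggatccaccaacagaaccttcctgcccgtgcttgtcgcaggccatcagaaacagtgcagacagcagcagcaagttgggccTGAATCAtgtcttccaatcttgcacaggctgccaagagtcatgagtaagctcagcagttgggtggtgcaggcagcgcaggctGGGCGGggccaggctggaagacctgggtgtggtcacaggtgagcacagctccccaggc
Serpinb7, chr1:107422439-107422688, plus strand: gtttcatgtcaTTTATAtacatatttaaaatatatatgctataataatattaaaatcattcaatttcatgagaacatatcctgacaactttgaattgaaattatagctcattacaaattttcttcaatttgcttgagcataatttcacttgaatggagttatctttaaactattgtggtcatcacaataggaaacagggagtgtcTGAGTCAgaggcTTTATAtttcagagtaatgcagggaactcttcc
Serpinb8, chr1:107589756-107590005, plus strand: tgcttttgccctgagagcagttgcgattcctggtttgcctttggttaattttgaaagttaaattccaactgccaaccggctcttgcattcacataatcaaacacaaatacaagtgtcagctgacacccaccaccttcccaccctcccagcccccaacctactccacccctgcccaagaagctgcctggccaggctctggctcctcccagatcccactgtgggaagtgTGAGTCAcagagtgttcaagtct
Serpinb3a, chr1:107052304-107052553, minus strand: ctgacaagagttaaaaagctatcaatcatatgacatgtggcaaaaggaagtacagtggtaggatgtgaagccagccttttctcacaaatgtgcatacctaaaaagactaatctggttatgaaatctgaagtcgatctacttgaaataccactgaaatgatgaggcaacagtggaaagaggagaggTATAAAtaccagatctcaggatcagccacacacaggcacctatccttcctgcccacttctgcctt
Serpinb3b, chr1:107161115-107161364, minus strand: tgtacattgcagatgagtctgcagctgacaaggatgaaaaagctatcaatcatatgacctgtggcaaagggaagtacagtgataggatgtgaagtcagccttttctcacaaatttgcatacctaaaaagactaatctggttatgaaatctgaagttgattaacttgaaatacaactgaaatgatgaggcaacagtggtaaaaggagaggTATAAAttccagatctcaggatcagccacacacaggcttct
Serpinb6c, chr13:33905192-33905441, minus strand: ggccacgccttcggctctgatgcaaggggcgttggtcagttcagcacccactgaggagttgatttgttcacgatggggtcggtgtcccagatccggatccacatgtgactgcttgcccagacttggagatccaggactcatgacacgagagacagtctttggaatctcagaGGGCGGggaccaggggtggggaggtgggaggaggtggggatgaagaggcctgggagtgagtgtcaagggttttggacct
Serpine2, chr1:79858666-79858915, minus strand: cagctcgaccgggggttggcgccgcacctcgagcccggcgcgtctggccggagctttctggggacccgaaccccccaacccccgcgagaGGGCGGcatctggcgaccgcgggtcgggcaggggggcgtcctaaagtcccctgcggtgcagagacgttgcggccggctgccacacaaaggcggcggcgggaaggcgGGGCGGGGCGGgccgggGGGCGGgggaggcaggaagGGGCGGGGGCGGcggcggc
TGANTCA occurred in the windows of Serpinb5, Serpinb7 and Serpinb8, beginning 140, 45 and 23 bases before the start. In Serpinb7 the capitals TTTATA are TATAAA on the other strand. TATAAA lay 65 and 41 bases before the start in Serpinb3a and Serpinb3b and at 239 and 33 bases in Serpinb7. These 2 windows of Serpinb3a and Serpinb3b were 92.5% identical over 226 aligned bases. GGGCGG was found in Serpinb5, Serpinb6c and, with 6 matches, Serpine2, which held neither other motif. Of all 32851 promoter windows of this length, 6.75% held TGANTCA, 12.4% TATAAA and 32.7% GGGCGG. Over 55 serpin windows, some of which are second starts of a gene, these shares were 21.8%, 23.6% and 12.7%. AACNGGTT, the core letters of a grainyhead site, was in 1.79% of all windows and in none of the 55.

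Serpinb5 (maspin, a clade B member of epithelial cells, chromosome 1, 106861175 to 106883348) was the most abundant of the called serpins. Serpinb5 was measured at 19.4, 47.2 and 39.6 FPKM in Control, 59.3, 92.97 and 57.6 in D15L100 and 64.4, 102 and 197 in D15L150. It stood at 138, 98.5 and 106 in D15L200, 81.1, 93.4 and 75.3 in D100L150 and 109, 96.97 and 137 in D150L150. All 15 spacer libraries lay above all 3 Control libraries, and the lowest of all 18 was Control 1. The difference was 1.50 ± 0.28 (log2, SE, limma adjusted p = 0.0139). Serpinb8, an inhibitor known for furin as a target (chromosome 1, 107589926 to 107608978), had the smallest called rise. Control levels of Serpinb8 were 5.88, 9.68 and 9.72 FPKM. Those at D15 were 14.5, 18.01 and 9.29 in D15L100, 15.5, 18.7 and 28.03 in D15L150 and 22.8, 22.97 and 19.4 in D15L200. D100L150 libraries held 20.2, 19.2 and 13.6 FPKM and D150L150 libraries 21.2, 16.7 and 23.1. Only D15L100 3 fell among the Control values, just under Control 2 and Control 3. Its difference was 1.07 ± 0.20 (limma adjusted p = 0.0131).

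Serpinb3a and Serpinb3b are mouse relatives of the human squamous cell carcinoma antigens, which inhibit cysteine and serine proteases. For Serpinb3a the Control libraries gave 0.0781, 0.703 and 0.892 FPKM, D15L100 2.91, 5.61 and 0.690 and D15L150 4.04, 7.34 and 5.56. In D15L200 the levels were 5.63, 4.93 and 5.06, in D100L150 1.03, 4.75 and 1.21 and in D150L150 7.07, 3.08 and 2.59. Spacer levels lay above Control except in D15L100 3, and D100L150 1 and D100L150 3 were only just above. Serpinb3a was higher by 1.60 ± 0.37 (limma adjusted p = 0.0315). No Control library reached an FPKM of 1 for Serpinb3a, so only spacer libraries brought it past the filter. Control levels of Serpinb3b were 0.740, 3.57 and 4.93 FPKM. Those at D15 were 8.74, 14.3 and 4.76 in D15L100, 8.81, 9.18 and 22.3 in D15L150 and 12.7, 11.2 and 9.17 in D15L200. D100L150 libraries held 14.1, 14.5 and 11.2 FPKM and D150L150 libraries 21.7, 13.3 and 12.7. Again D15L100 3 was the only spacer library not above every Control library, and Control 1 the lowest of all 18. Serpinb3b was higher by 1.83 ± 0.35 (limma adjusted p = 0.0139). The other copies, Serpinb3c and Serpinb3d, stayed at or under 0.0351 and 0.331 FPKM in every library.

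Serpinb7 encodes an inhibitor of the upper epidermis whose human gene is mutated in a palmoplantar keratoderma (chromosome 1, 107422689 to 107452689). Serpinb7 was measured at 0.135, 3.02 and 2.67 FPKM in Control, 10.6, 18.04 and 1.73 in D15L100 and 9.84, 18.5 and 34.4 in D15L150. It stood at 25.5, 13.8 and 9.58 in D15L200, 3.997, 10.5 and 6.88 in D100L150 and 9.81, 5.92 and 15.6 in D150L150. Control 1 was near 0, D15L100 3 lay within the Control range and the other 14 spacer libraries lay above it. The rise was 2.19 ± 0.54 (limma adjusted p = 0.0397), the largest standard error of the 8. Serpinb6c, a clade B gene of the chromosome 13 cluster (chromosome 13, 33879816 to 33905726), had the smallest adjusted p of the family. For Serpinb6c the Control libraries gave 1.52, 2.07 and 4.70 FPKM, D15L100 8.25, 12.5 and 5.59 and D15L150 9.60, 14.5 and 21.1. In D15L200 the levels were 17.6, 15.1 and 20.1, in D100L150 27.8, 17.8 and 18.7 and in D150L150 24.5, 19.1 and 15.3. Every spacer library lay above every Control library, the closest pair being D15L100 3 and Control 3. Its difference of 2.22 ± 0.26 (limma adjusted p = 0.00674) corresponds to 4.65-fold on the FPKM + 1 scale. Serpinb5 and Serpinb6c were the only tested serpins with all 15 spacer libraries above all Control libraries, a pattern seen in 0.795% of all genes, and none had all of them below (0.719% of genes).

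Serpina9 is a secreted clade A member (chromosome 12, 103996615 to 104013652) described in germinal centre B cells. Control levels of Serpina9 were 0.225, 1.40 and 1.41 FPKM. Those at D15 were 3.52, 3.08 and 1.10 in D15L100, 2.54, 5.50 and 2.57 in D15L150 and 6.08, 4.91 and 6.20 in D15L200. D100L150 libraries held 4.72, 5.69 and 1.87 FPKM and D150L150 libraries 5.44, 3.19 and 3.64. Levels were low throughout, and D15L100 3 was again the only spacer library below the highest Control. The difference was 1.30 ± 0.29 (limma adjusted p = 0.0288). Serpine2 encodes protease nexin 1, a secreted inhibitor of thrombin, plasmin and plasminogen activators (chromosome 1, 79794317 to 79858665). For Serpine2 the Control libraries gave 76.9, 38.2 and 32.5 FPKM, D15L100 30.3, 22.2 and 32.8 and D15L150 28.9, 26.3 and 16.3. In D15L200 the levels were 22.7, 20.8 and 28.00, in D100L150 11.96, 18.7 and 24.5 and in D150L150 14.5, 17.9 and 15.5. Control 1 was far above the other Control libraries, and D15L100 3 was the only spacer library above the lowest Control. The log2 difference of Serpine2 was -1.07 ± 0.24 (limma adjusted p = 0.0288). Endothelial markers in sum were also highest in Control 1, at 544 FPKM, and next highest in D100L150 1, at 274, where Serpine2 was lowest; their part in its level was not tested.

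**Figure D2:**
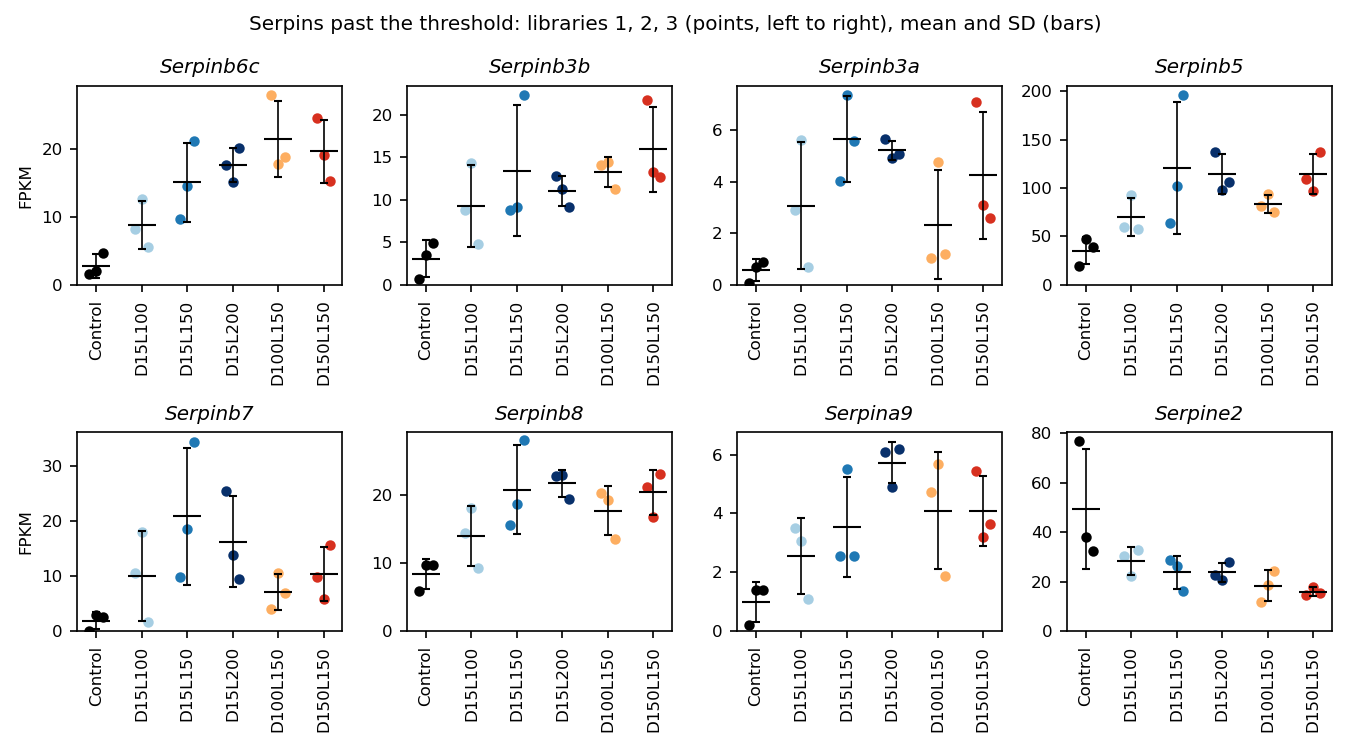
FPKM of the 8 serpins called in the comparison of all spacers with Control, 1 panel per gene with its own axis from 0. Points are libraries 1, 2 and 3 from left to right, and bars are the group mean and SD (n = 3). Serpinb6c averages 2.76 ± 1.70 FPKM in Control and 21.4 ± 5.56 in D100L150; Serpine2 averages 49.2 ± 24.2 and 16.00 ± 1.75 in Control and D150L150.

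Of the 6 clade B genes called higher, 5 belong to 1 chromosomal cluster, where other clade B genes stand between them. On chromosome 1, 106861175 to 107608978, the cluster holds 12 clade B genes, of which 9 were tested. All 9 differences were positive (median 1.50, beside -0.04 for all genes tested). Of the 9, 5 passed, where 2.84% of all genes were called higher, and without Control 1 none of the 5 passed. The 4 that did not pass were Serpinb12 (a trypsin-like protease inhibitor) at 1.93 ± 0.61 (limma adjusted p = 0.0906), Serpinb11 at 0.88 ± 0.37 (0.176), Serpinb2 at 0.50 ± 0.68 (0.690) and Serpinb10 at 0.27 ± 0.24 (0.533). The other clade B cluster, 13 genes on chromosome 13 from 32842092 to 34002794, had 8 tested genes with a median of 0.12, of which only Serpinb6c passed. Its neighbour Serpinb6a, the most abundant clade B gene, differed by 0.03 ± 0.16, and Serpinb6d and Serpinb6e by 0.76 ± 0.50 and 1.17 ± 0.51, none past the threshold. All 22 clade A genes lie in 1 cluster on chromosome 12, from 103616675 to 104414334, with 10 tested (median 0.37). Of the genes listed as epidermal clade B members, 5 of 7 tested were higher (median 1.60), and all 7 lie in the chromosome 1 cluster. The only tested genes of that cluster off the list, Serpinb10 and Serpinb11, had positive differences and did not pass. With so few genes off the list, list and cluster cannot be told apart. Of 6 clade B genes listed as leukocyte members none passed (median 0.02).

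**Figure D3:**
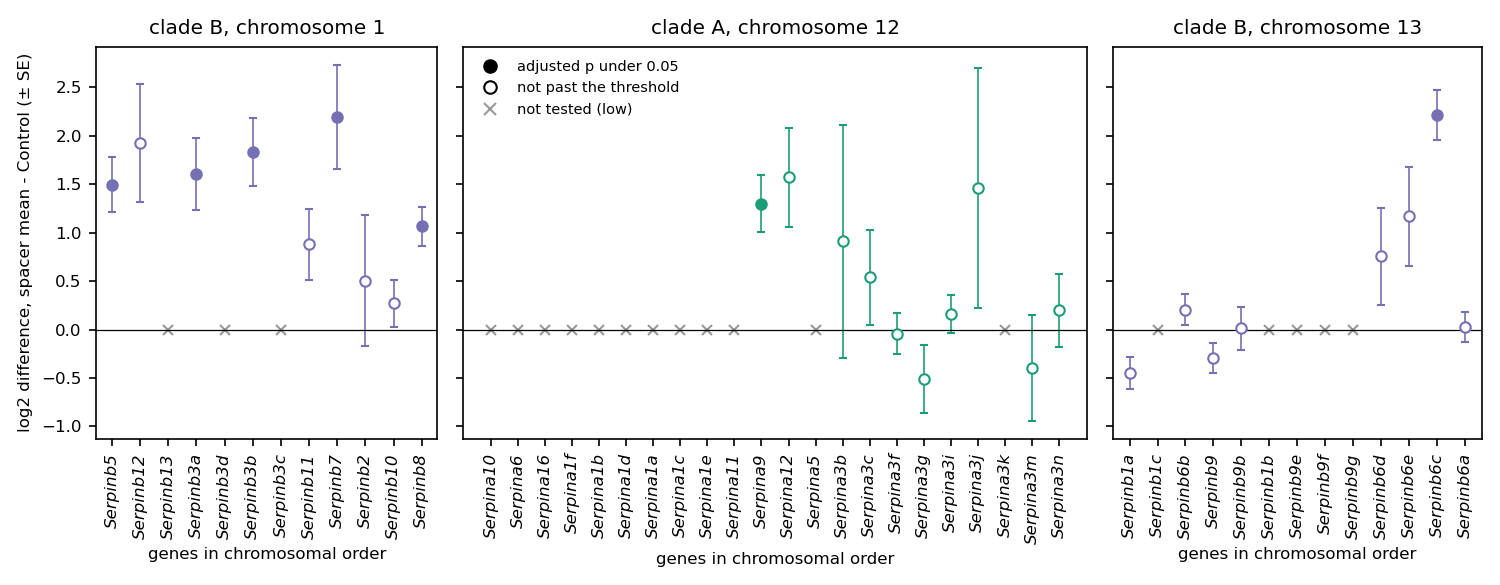
Log2 difference (mean of the spacer groups minus Control, with SE) of serpins in chromosomal order in 3 clusters. Filled points passed the threshold, open points did not, and crosses on the zero line are genes too low to test, with no difference measured. On chromosome 1 all 9 tested genes lie above zero; on chromosome 13 only Serpinb6c, at 2.22, passed.

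Leaving out Control 1 shrank the differences of all 8 called serpins. Serpinb6c then differed by 1.97 (limma adjusted p = 0.111), Serpinb7 by 1.61 (0.355), Serpinb3a by 1.36 (0.301) and Serpinb3b by 1.31 (0.185). Serpinb5 differed by 1.12 (0.194), Serpina9 by 0.98 (0.308), Serpinb8 by 0.85 (0.185) and Serpine2 by -0.70 (0.306). Over the 32 serpins the median fell from 0.39 to 0.17 and 25 kept their sign. The 7 that did not were not called in either fit. Serpina3b went from 0.91 to -0.78 and Serpina3j from 1.46 to -0.25; the others were Serpina3m, Serping1, Serpinb6a, Serpinb6b and Serpinb9b. At an unadjusted p under 0.05, 13 of 32 serpins passed with all libraries, where 22.4% of all genes did, and 8 of 32 without Control 1, where 10.9% of all genes did. Without Control 2 the number of serpins called was 4, and 279 of all genes were called. Control 1 also differed in other ways: its neutrophil markers summed to 6051 FPKM, against 1018 and 2954 in the other Control libraries, and its fibroblast markers to 3613 against 8527 and 10158. Its suprabasal keratinocyte markers summed to 260.4 FPKM, against 1403 and 1237 in Control 2 and Control 3. Its basal keratinocyte markers summed to 1285, against 3686 and 3158, and its wound keratinocyte markers to 890.0, against 1259 and 1853. These keratinocyte sums were each the lowest of the 18 libraries, and their part in the serpin differences was not tested.

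**Figure D4:**
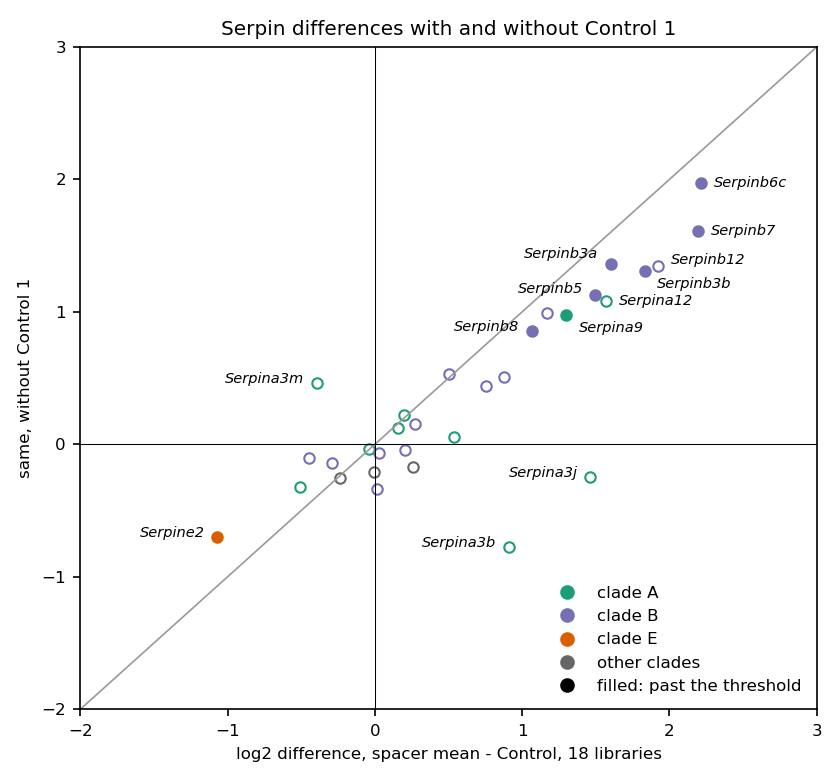
Log2 difference (mean of the spacer groups minus Control) of 31 tested serpins with all 18 libraries (horizontal axis) and without Control 1 (vertical axis). Filled points passed the threshold with 18 libraries, none passed without Control 1, and the grey line marks equal values. The 7 filled clade A and B points stay positive but lie below the line, and Serpina3b and Serpina3j move from above to below zero.

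Taken 1 spacer at a time, with the same Control libraries in each comparison, serpins passed the threshold in 3 of the 5 groups. In D150L150 there were 5 of 32, where 2.42% of all genes were called (2.03% higher, 0.398% lower): Serpinb6c at 2.52 ± 0.34 (limma adjusted p = 0.00847), Serpinb3b at 2.19 ± 0.45 (0.0297), Serpinb5 at 1.74 ± 0.37 (0.0303), Serpinb8 at 1.20 ± 0.26 (0.0328) and, lower, Serpine2 at -1.46 ± 0.31 (0.0322). In D15L200 there were 4, where 1.56% of genes were called (1.43% higher, 0.13% lower): Serpinb6c at 2.39 ± 0.34 (0.0298), Serpina9 at 1.80 ± 0.38 (0.0350), Serpinb5 at 1.74 ± 0.37 (0.0350) and Serpinb8 at 1.29 ± 0.26 (0.0325). In D100L150 there were 2, where 1.38% of genes were called (1.06% higher, 0.321% lower): Serpinb6c at 2.64 ± 0.34 (0.00796) and Serpinb3b at 1.97 ± 0.45 (0.0481). Without D100L150 1 no serpin passed in D100L150, and leaving out any 1 of the 3 D15L200 libraries left none in D15L200. In each of these fits no gene of the table passed in that comparison. Without Control 2 no serpin and no other gene passed in D15L200. Then 1 serpin passed in D100L150 (40 of all genes) and 2 in D150L150 (110). D150L150 had none without its library 1, where no gene passed. It had 2 without its library 2 (148 of all genes) and 1 without its library 3 (30).

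In D15L150 and D15L100 no gene of the table was called (0.0% in each). At an unadjusted limma p under 0.05, 12 of 32 serpins passed in D15L150, where 19.8% of all genes did, and the smallest adjusted p of a serpin was 0.0525. D15L100 had 11 of 32, where 3.3% of all genes passed, and 10 of these were higher. The same threshold was passed by 13 of 32 in D15L200 (17.3% of all genes), 10 in D100L150 (21.1%) and 9 in D150L150 (20.4%). Without Control 1 the count for D15L100 was 1 of 32, where 1.46% of all genes passed. All 3 libraries of a group lay above all 3 Control libraries for 14 of 32 serpins in D15L150 (12.4% of all genes), 12 in D15L200 (11.2%), 7 in D100L150 (11.0%), 7 in D150L150 (14.3%) and 3 in D15L100 (2.1%). They lay below for 2, 1, 4, 2 and 0 serpins in the same order (14.0%, 13.8%, 10.8%, 12.1% and 3.97% of all genes). The median difference of clade B was 1.19 in D15L150, 1.29 in D15L200, 0.65 in D15L100, 0.44 in D100L150 and 0.89 in D150L150. Clade A had medians of 0.93, 0.70, 0.27, -0.38 and 0.38 in that order of groups.

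Spacers were also compared with each other where they differ in 1 label number, in 6 pairs and in 2 F tests over 3 groups each. No gene of the table passed in any of these by limma with Benjamini-Hochberg adjustment (0.0% in each). The pair with the most serpins at an unadjusted p under 0.05 was D100L150 against D15L150, with 12 of 32, where 11.4% of all genes passed; 11 of the 12 were lower in D100L150. Serpinb6e differed most by p, at -2.17 ± 0.66 (unadjusted p = 0.00551, limma adjusted p = 0.412). Serpina3b differed by -3.69 ± 1.56 (0.428) and Serpinb12 by -2.23 ± 0.79 (0.412), these 3 being named after their values were seen. Without D100L150 1 the count fell to 3 of 32, where 3.19% of all genes passed. At that unadjusted threshold the other pairs gave 3 serpins for D15L200 against D15L100 (5.18% of all genes) and 1 for D150L150 against D15L150 (4.95%). None passed for D15L150 against D15L100 (4.72%), D15L200 against D15L150 (0.734%) or D150L150 against D100L150 (2.2%). For Serpinb6c, called against Control in 3 groups, D150L150 differed from D100L150 by -0.12 ± 0.34 and D15L200 from D15L150 by 0.27 ± 0.34, neither past the threshold.

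Serpinb2, which inhibits urokinase and tissue plasminogen activator and is largely kept inside cells, did not pass the threshold, and 1 library stood far apart. For Serpinb2 the Control levels were 86.4, 47.6 and 138 FPKM. Those at D15 were 58.97, 144 and 119 in D15L100, 81.6, 45.4 and 134 in D15L150 and 61.3, 97.9 and 165 in D15L200. D100L150 libraries held 934, 62.3 and 189 FPKM and D150L150 libraries 199, 260.4 and 40.04. It was by far highest in D100L150 1, and otherwise the groups overlapped. The spacer mean differed from Control by 0.50 ± 0.68 (limma adjusted p = 0.690).

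The plasminogen and clotting system was followed as a list of 12 genes, 9 of them tested. The list includes the genes of the plasminogen activators that Serpinb2 inhibits, and others that are not its targets. None passed between spacers and Control (median -0.04), and the most abundant, the endocytic receptor gene Lrp1, differed by 0.14 ± 0.18. The urokinase receptor gene Plaur was at 130.1, 33.1 and 57.1 FPKM in Control, 19.1, 31.9 and 127 in D15L200, 219.7, 34.7 and 45.5 in D100L150 and 67.1, 63.96 and 14.1 in D150L150. In D15L100 it was at 43.2, 42.2 and 31.8 and in D15L150 at 27.4, 15.9 and 17.1. D100L150 1 was highest for Plaur, for the thrombomodulin gene Thbd (164 FPKM), for the urokinase gene Plau (89.2) and for the tissue factor gene F3 (119), genes named after their values were seen. Plasminogen itself (Plg) was not among the tested genes. Neutrophil markers, 819.8 to 9769 FPKM in sum, were also highest in D100L150 1 and none was at 0 in any library. Wound keratinocyte markers were highest there as well, at 9976 FPKM. The part of either cell type in the level of Serpinb2 was not tested.

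**Figure D5:**
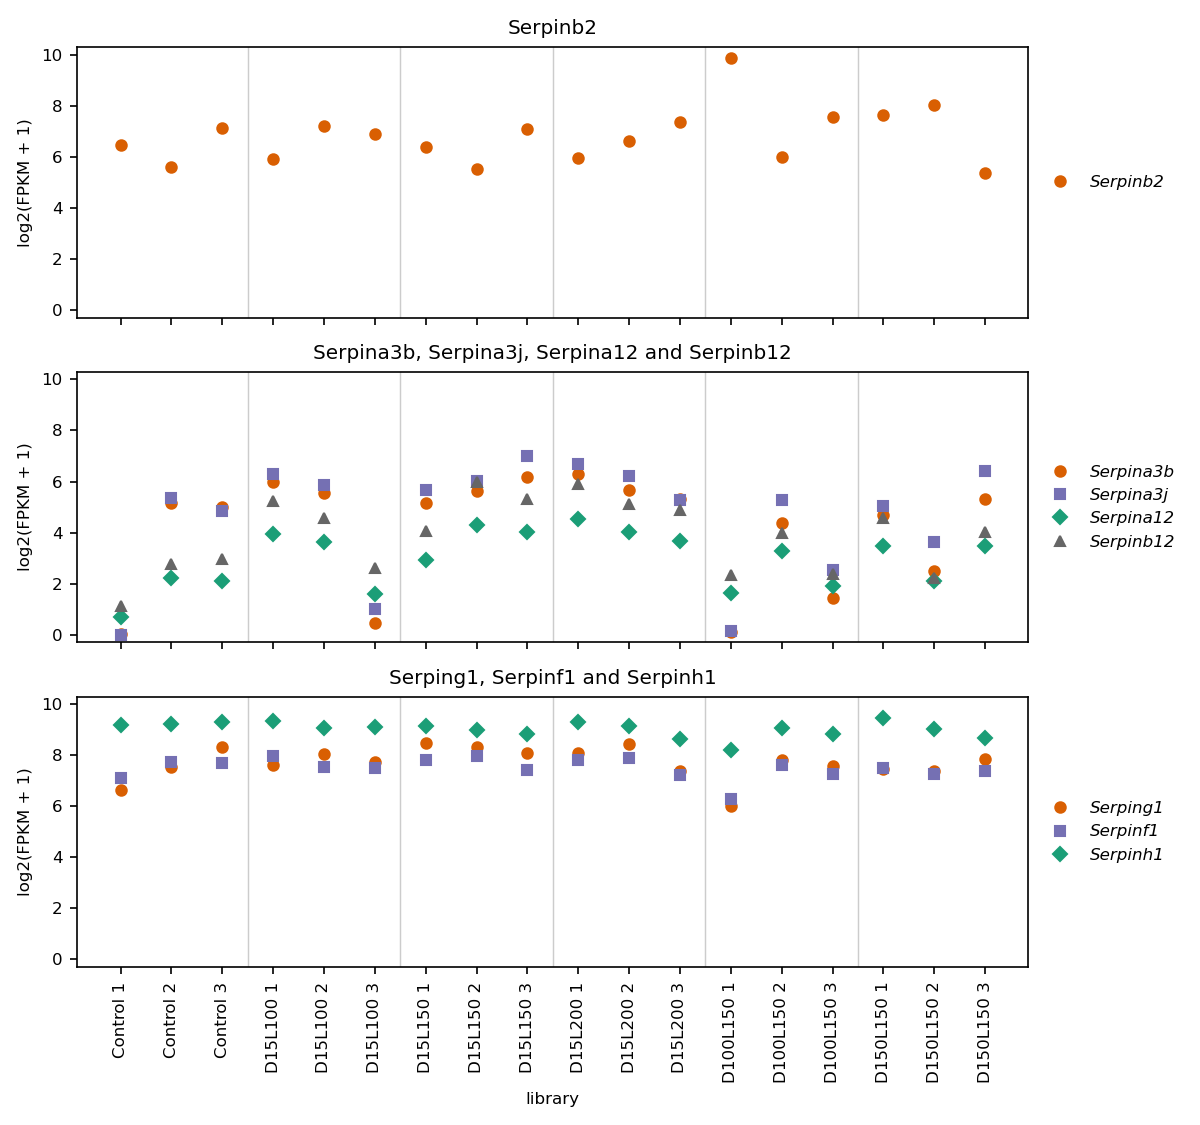
Levels of 8 serpins in each of the 18 libraries on a log2(FPKM + 1) axis, with groups separated by grey lines. Top: Serpinb2 peaks in D100L150 1, at 934 FPKM. Middle: Serpina3b and Serpina3j are near 0 in Control 1, D100L150 1 and, less so, D15L100 3. Bottom: Serping1, Serpinf1 and Serpinh1 are lowest in D100L150 1.

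None of the 3 most abundant clade A members passed the threshold. Serpina3n was at 106, 61.7 and 166 FPKM in Control and at 34.2 (D100L150 1) to 247 (D15L150 1) over spacers, a difference of 0.20 ± 0.38 (limma adjusted p = 0.788). For Serpina3j the Control libraries gave 0, 40.5 and 27.99 FPKM, D15L100 77.2, 57.7 and 1.01 and D15L150 49.8, 63.2 and 127. In D15L200 the levels were 103, 73.4 and 37.9, in D100L150 0.110, 37.3 and 4.76 and in D150L150 31.96, 11.4 and 83.5. Serpina3b was measured at 0.0153, 34.9 and 31.3 FPKM in Control, 62.3, 46.3 and 0.365 in D15L100 and 35.1, 48.3 and 71.5 in D15L150. It stood at 78.2, 50.4 and 38.4 in D15L200, 0.0599, 19.98 and 1.68 in D100L150 and 24.8, 4.64 and 38.7 in D150L150. Both genes were nearly absent from Control 1 (0 and 1 fragments) and D100L150 1, low in D15L100 3, D100L150 3 and D150L150 2, and high in the other 13 libraries. A count of 0 in Control 1 allows up to 0.0421 FPKM for Serpina3j (3 fragments, counting error only). The differences from Control, 1.46 ± 1.24 for Serpina3j and 0.91 ± 1.21 for Serpina3b, were about as large as their standard errors. As the libraries fall into separate clusters by these 2 genes, no correlation is given.

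A list of 12 sebaceous gland genes, chosen after these values were seen, was lowest in the same libraries. Its sum was 127 FPKM in D100L150 1, 140.0 in D15L100 3, 147 in Control 1, 205 in D100L150 3 and 303 in D150L150 2, and it reached 1234 in D150L150 3. Of the 12, 3 genes, Awat1, Elovl3 and Pnpla5, were at 0 in at least 1 library. None of the 12 passed between spacers and Control, and the part of sebaceous tissue was not tested. Serpina12 (vaspin, a secreted inhibitor of kallikreins) and Serpinb12, named for their likeness after values were seen, had a shared pattern over the 18 libraries. Serpina12 was at 0.603, 3.65 and 3.24 FPKM in Control and reached 22.3 in D15L200 1. Serpinb12 was at 1.19, 5.77 and 6.83 in Control and reached 62.9 in D15L150 2. On the log2 scale their Pearson's r was 0.981 and Spearman's rho 0.946 (permutation p = 1e-05 for each, the smallest that 100000 permutations give, adjusted p = 0.000184 for r and 0.000276 for rho over 496 pairs). Without Control 1 and D15L100 3 r was 0.98, and for deviations from group means it was 0.977. Of the 496 pairs 137 had an adjusted p for r under 0.05. Serpina12 differed between spacers and Control by 1.57 ± 0.51 (limma adjusted p = 0.0968).

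The other clades gave the most abundant transcripts and no call. Serpinh1, the endoplasmic reticulum chaperone of collagen, was at 582, 591 and 623 FPKM in Control, and over spacers at 296 (D100L150 1) to 695 (D150L150 1). Its difference was -0.24 ± 0.18 (limma adjusted p = 0.466). A list of 14 collagen and collagen-modifying genes had none past the threshold (median 0.00), with Col3a1, the most abundant, at 0.34 ± 0.35. Serping1, which inhibits C1r, C1s and kallikrein of plasma, was at 98.8, 185 and 318 FPKM in Control and 64.3 (D100L150 1) to 358 (D15L150 1) over spacers, a difference of 0.26 ± 0.35 (0.695). Of 6 tested contact and complement protease genes none passed (median 0.19), and the most abundant, Cfd, differed by 0.32 ± 0.93. Serpinf1, a secreted antiangiogenic protein without inhibitory activity, was at 136, 210.4 and 205 FPKM in Control and 77.9 (D100L150 1) to 249.8 (D15L100 1) over spacers, a difference of -0.003 ± 0.23 (0.996). For Serping1 and Serpinf1 every spacer group overlapped with Control. For Serpinh1, 12 spacer libraries lay below the lowest Control and 3 above the highest, all of D15L150 and D100L150 lay below, and none of the 5 group means was above that of Control. D100L150 1 was the lowest of 18 for each of the 3 genes. Fibroblast markers, 3348 to 12417 FPKM in sum, were also lowest in D100L150 1 and next lowest in Control 1.

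Among clade B genes of leukocytes, Serpinb1a, an inhibitor of neutrophil elastase, was at 70.3, 33.9 and 33.4 FPKM in Control and 25.6 to 38.97 over spacers. Control 1 stood alone above all others, and the difference was -0.45 ± 0.17 (limma adjusted p = 0.139). Below the lowest Control lay 11 of the 15 spacer libraries, among them all of D100L150 and D150L150. No spacer group mean was above that of Control. Serpinb6a, a widely expressed intracellular inhibitor, ranged from 142 (D150L150 1) to 295 FPKM (D15L100 1), with Control at 160.1, 209 and 179. Serpinb9, the inhibitor of granzyme B, differed by -0.29 ± 0.15 (0.265). Of 8 tested leukocyte protease genes none passed (median 1.15), the most abundant being the mast cell protease gene Mcpt4 at 1.50 ± 0.72. All code for serine proteases except Cpa3, a metallocarboxypeptidase gene, which is included in the count and the median. None of 8 cathepsin genes passed either (median 0.07). Cysteine cathepsins are targets of several clade B serpins, and the most abundant of them here, Ctss, differed by 0.05 ± 0.17. Ctsd, the most abundant of the list, is an aspartic protease and differed by 0.06 ± 0.10.

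Of the protease lists followed, only that of the epidermis had members past the threshold. Of 13 epidermal serine protease genes, all tested, 11 were higher over spacers, none was lower and 2 did not pass (median 1.72). In the same comparison of all spacers with Control, 2.84% of all genes were called higher. Among the 11, Tmprss11f averaged 0.236 FPKM in Control, so no Control library reached 1 and only spacer libraries brought it past the filter. The kallikrein-related genes Klk6, Klk7 (whose product cuts the junctions of cornified cells) and Klk10 had differences of 2.82 ± 0.39, 2.42 ± 0.38 and 3.05 ± 0.50 (limma adjusted p = 0.00674, 0.00870 and 0.00958). Control levels of Klk6 were 10.8, 55.04 and 46.4 FPKM and its spacer levels 58.3 to 577. The summed level of the list was 95.4 to 264 FPKM in Control and 271 (D15L100 3) to 1963 over spacers. The 7 serpins and 11 protease genes were higher in the same comparison, against the same 3 Control libraries. Without Control 1 none of them passed, as no gene of the table did.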

How the data were processed

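RNA from 18 skin libraries was measured. Per the labels' protocols, TRIzol was used for extraction and a VAHTS V6 kit for libraries. The deposited values are FPKM computed by the authors for 27743 genes. The submitters' processing notes list the mm10 build and the tools DESeq2, fastp, HISAT2, HTSeq and R 3.2.0 without roles. The annotation, and strand use in counting, were not given in the sources used.

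Groups and library numbers came from the titles and the group label. FPKM values of 27742 genes were whole multiples of 1 fragment within a relative tolerance of 1e-07, which gave fragments per library; the highest depth was 1.24 times the lowest. Values were transformed to log2(FPKM + 1), which understates differences of low genes, and the 13078 genes that reached an FPKM of 1 in 3 or more libraries were kept. A limma model (3.58.1, R 4.3.3) with 6 group means, trended and robust empirical Bayes and Benjamini-Hochberg adjustment over all genes gave 12 comparisons and 2 F tests. In simulated data of 13078 genes, 80.00% of 2-fold and 95.8% of 4-fold changes were recovered for the spacer mean, and 69.4% and 92.2% for D150L150 against Control. The simulated noise was normal and independent between genes, and each change was equal in all spacer libraries on the log2(FPKM + 1) scale. Libraries that stand apart for many genes, such as Control 1, were not simulated, so these shares do not give the recovery in the real data. Gene positions and promoters are RefSeq's on GRCm38.p6; shared sequence was counted over 100-base windows of GENCODE M21 transcripts.

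The serpins and all lists were chosen with earlier results of these data known, and the sebaceous list after its values were seen. Named with statistics were all called serpins, the top 3 of each clade by mean FPKM and members of the other clades with a mean of at least 1; 1 serpin is not reported here. Serpina12, Serpinb1a, Serpinb6d, Serpinb6e, Serpinb9, Serpinb10, Serpinb11 and Serpinb12 fall outside this rule and were chosen as cluster neighbours, list members or a correlated pair after their values were seen. For a list, up to 3 called members with the smallest p were named, otherwise the most abundant; further genes are said to be named after their values were seen. Alternatives were another pseudocount, no filter, quantile or TPM scaling, a replicate block, only the groups compared, voom on the recovered fragments, a muscle covariate and leaving out each library.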

Additional observations from a re-analysis of the deposited data

How the results depend on the processing

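Counts of serpins past the threshold depended on the fit, while the 8 called serpins kept their direction, in each comparison that called them, under every alternative run. Of the serpins not called, 7 changed sign without Control 1, as given above. Counts in brackets are of all genes called at the same setting. For the mean of the spacer groups 8 serpins were called (466), and 4 with no filter on low values (227), 4 with voom on recovered fragments (285) and 4 with the muscle covariate (190). Leaving out 1 library gave 0 to 10. For D15L150 the count of 0 (0) became 1 with a pseudocount of 0.1 (28), 2 with quantile scaling (88), 4 with TPM scaling (142) and 3 with the muscle covariate (134), and 0 to 6 on leaving out 1 library. For D15L200 the count of 4 (204) became 0 with no filter (0), 1 with only the groups compared (52), 0 with voom (10) and 1 with the muscle covariate (26), and 0 to 8 on leaving out 1 library. With only the groups compared, all 11 calls of a serpin in a single spacer group fell short of the threshold. The 1 serpin called in D15L200 at that setting was therefore another gene. For D100L150 the count of 2 (181) became 1 with a pseudocount of 0.1 (173), 1 with no filter (50), 1 with TPM scaling (169), 0 with only the groups compared (0), 1 with voom (90) and 1 with the muscle covariate (23), and 0 to 4 on leaving out 1 library. For D150L150 the count of 5 (317) became 1 with no filter (82), 0 with only the groups compared (47) and 0 with the muscle covariate (0), and 0 to 7 on leaving out 1 library. In D15L150 the count rose to 6 without D15L100 2 (239), 6 without D15L100 3 (218) and 2 without D15L150 1 (45). It rose to 8 in D15L200 without D15L100 3 (303). In D100L150 it rose to 4 without D15L100 2 (351), D15L150 3 (233) or D100L150 3 (307). In D15L200 2 were left without D150L150 1 (88), and in D100L150 1 without each of 10 other spacer libraries and without Control 2 (40). D15L100, the 6 pairs of spacers and the 2 F tests gave 0 throughout. Without a filter more genes are adjusted for, and fits with fewer groups have fewer libraries; the other causes were not tested.

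With the replicate block, 6 serpins were called for the spacer mean (256 of all genes), 0 for D15L200 (0), 1 for D100L150 (46) and 2 for D150L150 (105). The labels do not say that numbers pair libraries: over 45 same-numbered pairs of libraries from different groups, the correlation of deviations from group means was -0.66 to 0.53, with 18 over 0.1, and 1 of 18 libraries correlated best with its own number. At this depth a gene at 0 could hold up to 3 fragments, which touches only Serpina3j, Serpinb6d and Serpinb6e among the tested serpins.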
